A study of Mus musculus with 67 samples.

Results

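The subunits of the mitochondrial respiratory chain and ATP synthase were compared between 3 inbred mouse strains that differ in blood pressure. The members were the probe sets whose gene symbol, in the platform's probe-to-gene table, starts with Nduf followed by a, b, s, v or c, with Uqcr, with Cox and a digit from 4 to 8, or with Atp5, or is Sdha, Sdhb, Sdhc or Sdhd. The rule found 82 probe sets for 73 genes, out of 38385 probe sets on the array and 19147 genes named there. Complex I had 27 probe sets for 24 genes, complex II 6 for 4, complex III 8 for 7, complex IV 18 for 18 and complex V 13 for 12. The other 10 probe sets, for 8 genes, match the rule but encode no listed subunit: they are the complex I assembly factors Ndufaf1 and Ndufaf3 to Ndufaf8, and Ndufa11b. The list drawn up for the mitochondrially encoded subunits held 26 symbols, with alternative spellings of the same genes. Of these symbols 0 were matched to a probe set, and none of the genes was analysed here.

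The mice were males of 12 weeks. Systolic pressure was stated as 142 ± 5 mmHg for the hypertensive strain, BPH/2J, as 94 ± 6 mmHg for BPN/3J, which has normal pressure, and as 69 ± 1.7 mmHg for BPL/1J, which has low pressure. They carried no stated transgene and received no stated treatment. Transcripts were measured on single-colour arrays in aorta (9 BPH, 5 BPN and 9 BPL arrays), heart and liver (5 of each strain) and kidney (5 BPH, 5 BPN and 4 BPL). The design text gives 5 mice per strain and does not tie arrays to animals, so the p-values measure the spread between arrays, which for aorta may be partly technical. Each strain is 1 inbred line, so a difference between strains can come from any of their genetic differences and not only from those behind blood pressure.

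Complexes I and II feed electrons from NADH and succinate into ubiquinone, complex III passes them to cytochrome c, and complex IV hands them to oxygen. Complexes I, III and IV pump protons across the inner mitochondrial membrane, and complex V, the ATP synthase, uses the returning protons to make ATP. Several complex IV subunits exist as paired isoforms, one found in most tissues and the other in heart and skeletal muscle, lung and vessel wall, or testis, and the chain is especially abundant in cardiac muscle and in brown fat, where the uncoupling protein Ucp1 turns the proton gradient into heat.

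Promoter sequence was available in the RefSeq table of build GRCm38.p6 for 57 of the 73 genes, with 61 entries. The 250 bases before the annotated start are shown for 3 of the 4 complex II genes, whose probe sets all rose in BPL aorta, for Ndufaf4, lower in BPL in kidney, liver and heart by 1 or more of its probe sets, and for Atp5g1, whose probe sets disagree. They are written 5′ to 3′ along the gene's strand. Capitals mark exact matches on either strand to a motif. The first of the motifs given was GCATGCG, from the core of the site bound by nuclear respiratory factor NRF1. Its matches on the 2 strands can overlap at a full site. It replaced a longer NRF1 site that was searched earlier, whose share is not given. The second motif was CCGGAAG, a core bound by ETS factors such as GABP. Both factors are known regulators of nuclear genes for the respiratory chain. The reference genome is not that of any of the 3 strains.
Sdha, chr13:74350241-74350490, minus strand: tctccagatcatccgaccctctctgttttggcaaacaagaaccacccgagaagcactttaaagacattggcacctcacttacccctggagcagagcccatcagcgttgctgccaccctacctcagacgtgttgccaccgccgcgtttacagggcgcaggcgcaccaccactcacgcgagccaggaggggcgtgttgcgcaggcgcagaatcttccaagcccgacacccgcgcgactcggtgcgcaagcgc
Sdhb, chr4:140961021-140961270, plus strand: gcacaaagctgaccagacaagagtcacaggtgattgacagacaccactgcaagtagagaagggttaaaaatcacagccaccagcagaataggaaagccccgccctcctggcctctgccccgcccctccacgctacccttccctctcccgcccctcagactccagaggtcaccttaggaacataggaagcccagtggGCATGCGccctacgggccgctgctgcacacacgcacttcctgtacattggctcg
Sdhd, chr9:50603850-50604099, minus strand: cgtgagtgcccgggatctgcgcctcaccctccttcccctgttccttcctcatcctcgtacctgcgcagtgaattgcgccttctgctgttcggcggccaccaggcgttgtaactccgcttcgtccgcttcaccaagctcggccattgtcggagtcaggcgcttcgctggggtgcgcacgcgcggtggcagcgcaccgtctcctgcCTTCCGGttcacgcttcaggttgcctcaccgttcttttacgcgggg
Ndufaf4, chr4:24897833-24898082, plus strand: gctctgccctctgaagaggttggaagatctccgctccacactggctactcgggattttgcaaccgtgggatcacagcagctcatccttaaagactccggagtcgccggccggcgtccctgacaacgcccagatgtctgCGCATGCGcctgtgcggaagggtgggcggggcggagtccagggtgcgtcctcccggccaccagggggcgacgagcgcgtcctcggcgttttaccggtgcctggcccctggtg
Atp5g1, chr11:96075632-96075881, minus strand: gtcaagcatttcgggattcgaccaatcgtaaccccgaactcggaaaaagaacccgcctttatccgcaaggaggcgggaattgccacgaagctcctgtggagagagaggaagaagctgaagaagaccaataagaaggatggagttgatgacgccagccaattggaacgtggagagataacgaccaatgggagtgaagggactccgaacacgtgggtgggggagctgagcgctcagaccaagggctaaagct
The NRF1 letters begin 112 bases before the start in Ndufaf4 and 54 in Sdhb, and the ETS letters 46 bases before it in Sdhd. Over the same 250 bases, the NRF1 letters stood in 8 of the 61 member promoters (13.1%) against 992 of all 32851 in the table (3.02%). Besides Ndufaf4 and Sdhb these were Atp5g2, Atp5j, Atp5k, Cox6a1, Ndufa6 and Ndufa8. The ETS letters stood in 11 member promoters (18.0%) against 2269 of all (6.91%), among them those of Ndufs3, Ndufaf1, Cox6b1, Cox6a1, Uqcrh and Sdhd. A match is a description of the letters and no measure of binding.

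Tissue labels matched their markers. All 8 smooth muscle markers lay above the array median in aorta, as did 11 of 11 striated muscle markers in heart, 6 of 6 proximal tubule markers in kidney and 5 of 5 hepatocyte markers in liver. Array medians of the deposited intensities ranged from 25.3 to 26.6 in aorta, 24.6 to 26.3 in heart, 29.8 to 31.5 in kidney and 13.6 to 14.4 in liver, and levels were compared only within a tissue. Of the 82 probe sets, 72 had a mean above the array median in aorta, 75 in heart and 73 each in kidney and liver. None was filtered out. Between 1 (aorta) and 6 (liver) lay below the lower quartile. Where either strain of a comparison averaged less than that quartile on 1 or more arrays of the tissue, the call is given without a fold or size. The values used here hold no detection call. A pair of aorta arrays stood apart. BPL 26 had a mean log2 level of 8.14 over the hepatocyte markers, against at most 5.23 on the other aorta arrays. BPH 5 had 8.20 over the striated muscle markers, against at most 6.70 on the other BPH arrays. Over the same markers the BPL arrays ranged from 6.83 to 7.49 and the BPN arrays from 6.26 to 6.41.

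In aorta, the members called were nearly all higher in BPH and BPL than in BPN. Of the 82 probe sets, 14 rose and 0 fell in BPH against BPN (17.1%, against 9.15% of all probe sets called in either direction, 4.45% higher and 4.7% lower), with a median log2 difference of 0.21. In BPL against BPN, 30 rose and 2 fell (39.0%, against 10.3% of all, 5.14% higher and 5.2% lower). Their median was 0.29, against 0.00 and 0.01 over all probe sets in these comparisons, and 73 and 74 of the 82 differences were positive. Called means a Benjamini-Hochberg adjusted limma p below 0.05 over all 38385 probe sets, and rose and fell are used only of called differences, given as log2 values ± standard error. Both comparisons use the same 5 BPN arrays. In every tissue most members lay above the array median, and the shares over all probe sets were not matched for signal level. With only probe sets above the array median, 18 of 72 members were called in BPH aorta, among 3640 called in all. In BPL aorta these were 36 of 72, among 3928. Without the filter the counts over all were 3513 and 3971, from more probe sets tested. The filtered shares of all were therefore higher than 9.15% and 10.3%, and the unfiltered shares are not a matched background for the members. Without both arrays that stood apart, an alternative chosen after seeing the data, 10 and 27 probe sets were called. In BPH against BPL, 3 rose and 3 fell (7.32%, against 11% of all, 5.67% higher and 5.36% lower).

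**Figure D1:**
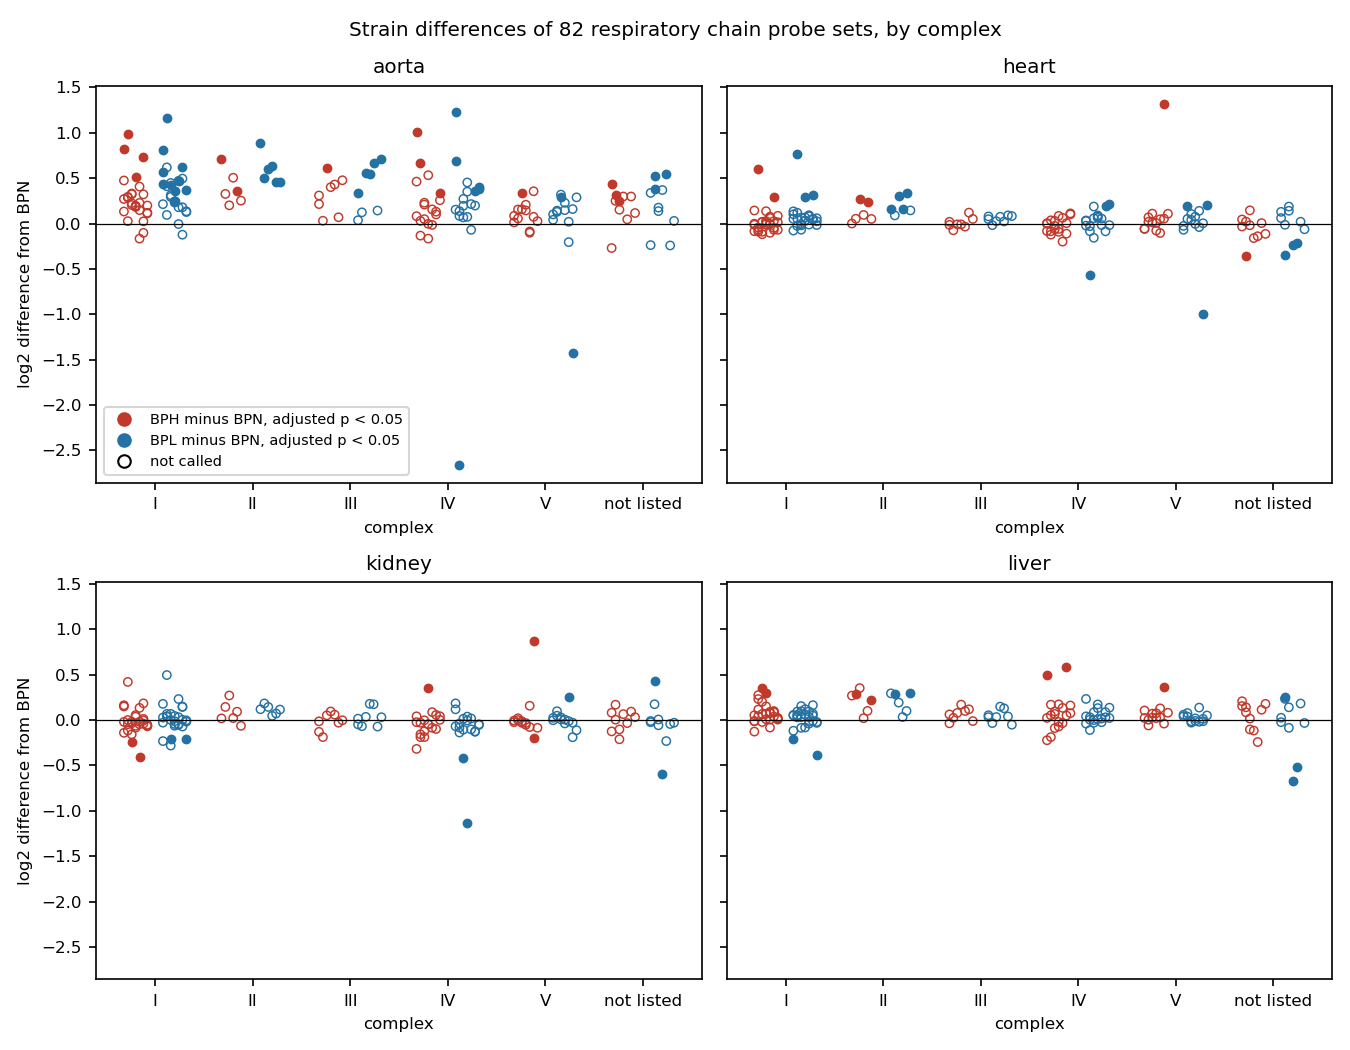
Log2 difference from BPN (vertical axis) of each of the 82 probe sets by complex (horizontal axis), for BPH (red) and BPL (blue), with filled points for adjusted p below 0.05. In aorta 73 and 74 of the 82 points lie above 0, while in heart, kidney and liver most lie close to it. The lowest point is Cox4i2 in BPL aorta at -2.66.

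Complex I took part with 4 of 27 probe sets in BPH and 10 of 27 in BPL, all higher. These were 14.8% and 37.0%, against 9.15% and 10.3% of all probe sets called in either direction. Ndufv3, an accessory subunit of the NADH-binding arm, ran from 9.96 through a median of 10.42 to 10.59 on the BPH aorta arrays and from 10.04 through 10.29 to 10.60 on the BPL arrays. The BPN arrays read 9.55, 9.39, 9.75, 9.66 and 9.86, so neither strain overlapped BPN. The differences were 0.74 ± 0.11 in BPH (adjusted p = 1.87e-05, limma) and 0.62 ± 0.11 in BPL (adjusted p = 0.000162, limma). Ndufs8, an iron-sulfur subunit of the core, rose by 0.51 ± 0.12 in BPH, and its 0.24 ± 0.12 in BPL missed the threshold (adjusted p = 0.269, limma). Among the others that rose in BPL were Ndufa10 (0.56 ± 0.16), Ndufv1 (0.47 ± 0.14), the flavoprotein that binds NADH, Ndufa8 (0.44 ± 0.10) and Ndufs3 (0.36 ± 0.10).

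All 6 complex II probe sets rose in BPL aorta, and 2 of 6 in BPH. Sdhc, one of the pair of membrane anchors of succinate dehydrogenase, ran from 11.37 through 11.47 to 11.79 in BPH and from 11.33 through 11.68 to 11.79 in BPL. The 5 BPN arrays read 11.32, 11.03, 11.07, 10.95 and 11.30, all below every BPH and BPL array. Its differences were 0.36 ± 0.09 (adjusted p = 0.00975, limma) and 0.46 ± 0.09 (adjusted p = 0.000841, limma). Sdhb, the iron-sulfur subunit, rose by 0.63 ± 0.16 in BPL, and its 0.50 ± 0.16 in BPH had an adjusted p of 0.0516 (limma). Sdhd, the other anchor, rose by 0.46 ± 0.15 in BPL.

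In complex III, 1 of 8 probe sets rose in BPH (12.5%, against 9.15% of all) and 5 of 8 in BPL (62.5%, against 10.3%). Uqcrc1, a core subunit, rose by 0.61 ± 0.17 in BPH, a call lost without BPN 12, 13 or 14, and by 0.56 ± 0.17 in BPL. Uqcrfs1, the Rieske iron-sulfur protein, rose by 0.67 ± 0.16 in BPL, Uqcrc2, the other core subunit, by 0.55 ± 0.15, and Uqcr11 by 0.34 ± 0.11.

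Complex IV differed among its own isoforms. In BPL aorta 5 of 18 probe sets rose and 1 fell (33.3%, against 10.3% of all), and in BPH 3 rose (16.7%, against 9.15%). Cox7a1, the heart, skeletal muscle and brown fat form of its subunit, spanned 10.05 to 11.86 in BPH and 10.69 to 12.06 in BPL. The BPN arrays read 10.95, 10.69, 9.92, 8.69 and 10.87 and overlapped both. Its differences were 1.00 ± 0.32 in BPH (adjusted p = 0.05 when rounded, just under the threshold, limma) and 1.23 ± 0.32 in BPL (adjusted p = 0.0119, limma). The BPH call was lost when any of 17 of the 23 arrays was left out, among them BPN 12, 13 and 14, and the BPL call when BPN 14 was left out (0.85, adjusted p = 0.0639, limma). Cox8b, another form of striated muscle and brown fat, had 0.46 ± 0.22 in BPH, which was not called, and rose by 0.69 ± 0.22 in BPL, a call lost without any of 10 arrays. Cox8a, its partner in most tissues, rose by 0.34 ± 0.10 and 0.38 ± 0.10, with the BPH call lost without BPH 7, BPH 10, BPN 12, BPN 13 or BPN 14 and the BPL call without BPN 14. The widespread Cox4i1 (0.08 ± 0.08 and 0.15 ± 0.08) and Cox7a2 (0.03 ± 0.07 and 0.08 ± 0.07) were not called in either strain. The Cox7a2 probe set had low signal outside aorta, below the array median on every heart, kidney and liver array. In liver it lay below the lower quartile (2.67 to 2.76) on every array, so a missing call on this probe set says little about that isoform. Ndufa4, a complex IV subunit first assigned to complex I, had 0.23 ± 0.11 and 0.27 ± 0.11, and its paralog Ndufa4l2 had -0.17 ± 0.13 and 0.07 ± 0.13, none of them called; neither gene was called against BPN in heart, kidney or liver.

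Complex V had 1 of 13 probe sets called in BPH (7.69%, against 9.15% of all probe sets) and 2 of 13 in BPL (15.4%, against 10.3%). Atp5d, a subunit of the rotating central stalk, rose by 0.34 ± 0.09 in BPH (lost without BPN 12 or 14) and 0.30 ± 0.09 in BPL, and 1 probe set of Atp5g1 fell in BPL. The median of the 13 probe sets was 0.08 in BPH and 0.14 in BPL, against 0.34 and 0.55 over the 6 of complex II. This is a description of medians, and no test compared the complexes.

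The aorta counts depended on single BPN arrays. With BPN 12, 13 or 14 left out, the members called in BPH against BPN went from 14 to 7, 7 and 6, and with BPN 13 or 14 left out those in BPL against BPN went from 32 to 20 and 16. Leaving out other arrays moved the counts as high as 20 (without BPH 2) and 38 (without BPL 23). The lowest median difference over all these fits was 0.17 in BPH and 0.24 in BPL. In BPL, complex II had 4 calls in place of 6 without BPN 14, complex III 2 in place of 5 without BPN 13 or BPN 14, complex I 5 in place of 10 and complex IV 1 in place of 6 without BPN 14. In BPH, complex III had 0 calls without BPN 12, 13 or 14, and complex II 1.

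The mean level of the brown adipocyte markers was also lowest in BPN aorta, without overlap, and Elovl3 differed most among them. Of the single markers, only Elovl3 kept both strains clear of BPN. It ran from 6.44 to 7.81 in BPH, 3.01 to 4.59 in BPN and 6.06 to 9.12 in BPL. The mean log2 level of the 6 measured markers of 8 listed ranged from 8.70 to 9.53 in BPH, 7.79 to 8.62 in BPN and 8.93 to 9.96 in BPL. Ucp1 ran from 12.12 through 12.72 to 12.98 in BPH, 9.84 through 11.42 to 12.19 in BPN, and 12.41 through 12.93 to 13.11 in BPL. It rose by 1.37 ± 0.24 in BPH and 1.55 ± 0.24 in BPL, and Elovl3, a fatty acid elongase of brown fat, by 3.31 ± 0.39 and 4.51 ± 0.39. Cidea (0.57 and 0.77) and Cpt1b (0.42 and 0.81) were not called, Dio2 fell by 0.39 in BPL, and Zic1 lay below the lower quartile. BPN 14 had the lowest marker level, 1.33 below the mean over the aorta arrays, and the lowest level of the members, 0.30 below. The highest of both was BPL 22, at 0.83 and 0.34 above.

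White adipocyte markers had 0 of 6 higher and 1 lower in each strain, and the 8 smooth muscle markers had medians of -0.01 in BPH and -0.14 in BPL with 0 called higher. Of 11 striated muscle markers 4 rose and 1 fell in BPH and 4 rose in BPL. Of 7 fibroblast markers 2 fell in BPH and 5 in BPL. The mean level of the striated muscle markers was 6.83 to 7.49 in BPL and 6.26 to 6.41 in BPN. For smooth muscle markers it was 11.90 to 12.20 in BPL and 12.22 to 12.34 in BPN. For fibroblast markers it was 11.94 to 12.17 in BPL and 12.24 to 12.38 in BPN. BPL thus lay clear of BPN on these lists as well, while BPH overlapped BPN on each. Of 6 lymphocyte markers 5 fell in BPH (median -0.93), namely Cd3d, Cd3e and Cd3g of T cells with Cd79b and Ms4a1 of B cells, and 0 were called in BPL (median -0.49). Their mean level ranged from 4.04 to 5.83 in BPH, 5.12 to 6.35 in BPN and 5.08 to 5.78 in BPL, so the strains overlapped. Of 5 bile duct markers 2 fell in each strain, with medians of -0.68 and -0.12, and Sox9 was among them in both. The part of these cell types in the differences of the members was not tested. In bulk tissue, more cells of a type and more RNA per cell cannot be told apart.

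**Figure D2:**
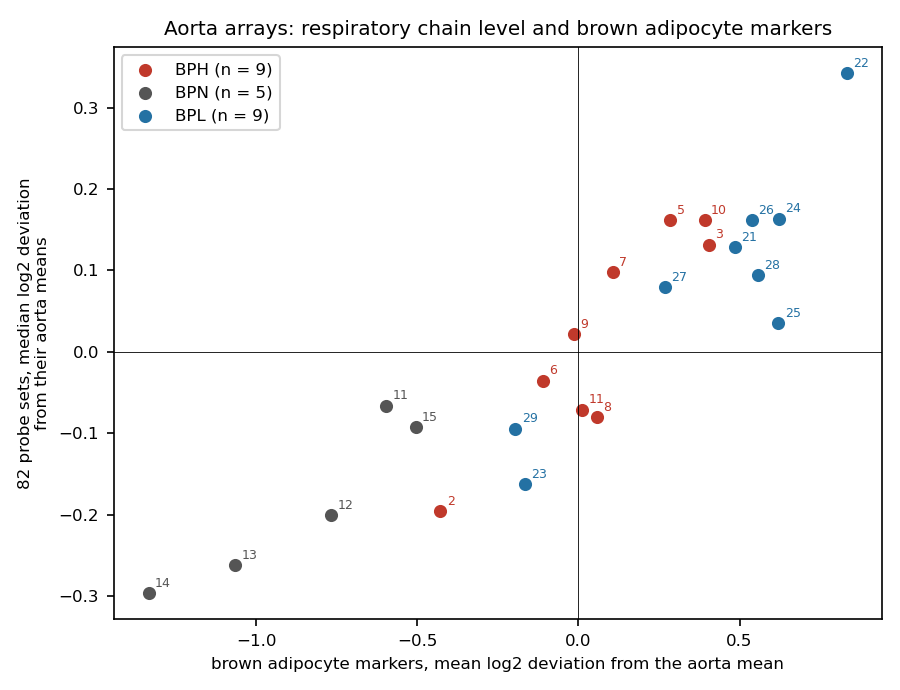
Each point is 1 of the 23 aorta arrays, numbered by replicate. The horizontal axis is the mean log2 deviation of the brown adipocyte markers from the aorta mean, and the vertical axis the median log2 deviation of the 82 probe sets. Elovl3 is the marker that differs most between strains. BPN 14 lies lowest on both axes, at -1.33 and -0.30, and BPL 22 highest, at 0.83 and 0.34. All 5 BPN points lie below 0 on both axes.

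Genes called on other mitochondrial lists were mostly higher than in BPN in aorta as well. In BPH this did not hold for the assembly factors and the other electron carriers. Of all probe sets, 4.45% were called higher in BPH and 5.14% in BPL, not matched for signal level. Of 16 measured citric acid cycle genes, 3 rose in BPH and 9 in BPL, with medians of 0.32 and 0.46 and 0 lower. Of 10 genes of coenzyme Q synthesis, 4 rose in each strain, with medians of 0.34 and 0.43. Of 18 regulators of mitochondrial biogenesis, 2 rose in BPH and 7 in BPL. Of 23 assembly factors, a list without the Ndufaf genes above, 1 rose and 1 fell in BPH, and 9 rose and 1 fell in BPL. Among 12 other electron carriers 0 rose in BPH and 3 in BPL. In heart, kidney and liver the citric acid cycle list had 1 to 3 genes higher and 0 or 1 lower in each of the 6 comparisons with BPN.

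Complex II probe sets were mostly above BPN outside aorta as well. All 6 probe sets had a positive difference from BPN in heart BPL, kidney BPL and both liver comparisons, and 5 of 6 in heart BPH and kidney BPH. In heart, Sdhc read 12.45, 12.47, 12.45, 12.41 and 12.44 in BPH, 12.17, 12.17, 12.21, 12.27 and 12.21 in BPN, and 12.51, 12.59, 12.51, 12.52 and 12.56 in BPL. The 3 strains did not overlap, with BPN lowest and BPL highest. It rose by 0.24 ± 0.05 in BPH (adjusted p = 0.00236, limma) and 0.33 ± 0.05 in BPL (adjusted p = 7.94e-05, limma), while BPH minus BPL was -0.09 ± 0.05 (adjusted p = 0.266, limma). These calls held with each of the 15 heart arrays left out. In BPL heart 4 of 6 complex II probe sets rose, the others being Sdhb (0.15 ± 0.05) and 2 of Sdha (0.16 ± 0.05 and 0.31 ± 0.07), and leaving out single arrays left between 2 and 4.

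In liver, 2 complex II probe sets rose in each strain. The probe set of Sdha, the flavoprotein that oxidises succinate, with ID 100100393_TGI_at read 11.70, 11.82, 11.60, 11.71 and 11.63 in BPH, 11.40, 11.35, 11.43, 11.44 and 11.40 in BPN, and 11.70, 11.66, 11.76, 11.65 and 11.72 in BPL. Every BPH and BPL array lay above every BPN array. Its differences were 0.29 ± 0.06 in both strains, with adjusted p of 0.00407 and 0.00326 (limma). Sdhd rose by 0.23 ± 0.07 in BPH and 0.30 ± 0.07 in BPL. In kidney 0 of 6 were called in either strain by limma, with 2 in BPH and 1 in BPL at an unadjusted p below 0.05. The BPL heart difference of Sdhc was larger than that in kidney by 0.26 ± 0.06 (adjusted p = 0.00373, limma interaction) and than that in liver by 0.23 ± 0.06 (adjusted p = 0.00678, limma interaction).

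**Figure D3:**
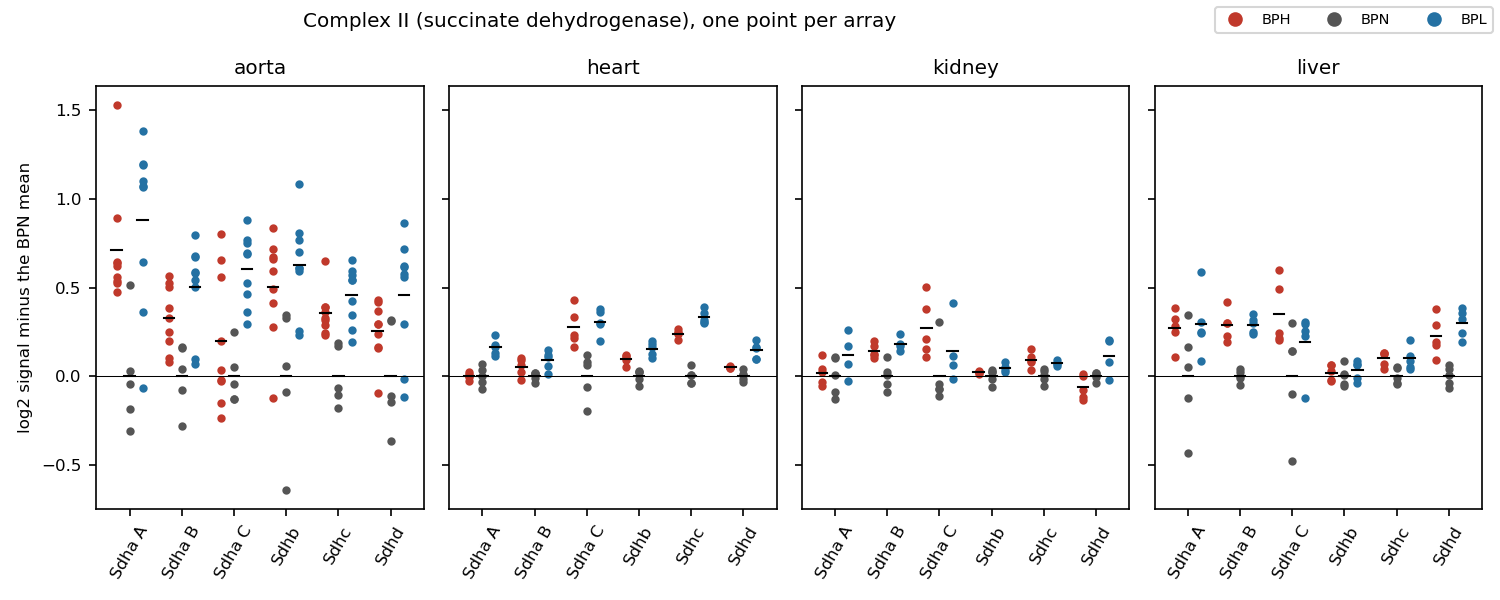
Log2 signal of the 6 complex II probe sets minus their BPN mean (vertical axis), one point per array, with black lines at strain means (BPH red, BPN grey, BPL blue). Sdha A, B and C are its probe sets 100084028_TGI_at, 100100393_TGI_at and 100114260_TGI_at. In aorta the 6 BPL means lie 0.46 to 0.88 above BPN. In heart the Sdhc points of the 3 strains do not overlap.

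Cox4i2 showed the largest difference of any member. It encodes the form of subunit 4 known from lung and vascular cells and linked to the response to low oxygen. In aorta it ran from 7.35 through 7.74 to 7.96 in BPH and from 3.78 through 4.34 to 4.90 in BPL, and the BPN arrays read 7.14, 7.27, 6.96, 7.10 and 6.86. The 3 strains did not overlap. BPL was 6.30-fold lower than BPN (-2.66 ± 0.14, adjusted p = 5.08e-13, limma), and BPH was 1.59-fold higher than BPN (0.66 ± 0.14, adjusted p = 0.00264, limma). BPH exceeded BPL by 3.32 ± 0.12 (9.99-fold). These calls held with each of the 23 arrays left out.

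In heart, Cox4i2 read 5.57, 5.38, 5.42, 5.14 and 4.96 in BPL and 5.83, 5.79, 5.87, 5.96 and 5.83 in BPN, without overlap, and BPL fell by 0.56 ± 0.10 on the log2 scale (adjusted p = 0.000801, limma). The BPH heart arrays read 5.85, 5.55, 5.65, 5.90 and 5.73, and their difference of -0.12 ± 0.10 was not called. In kidney the means were 4.57 ± 0.10 (SD, n = 5) in BPH, 4.73 ± 0.16 (SD, n = 5) in BPN and 4.59 ± 0.14 (SD, n = 4) in BPL. In liver they were 3.83 ± 0.08, 3.66 ± 0.09 and 3.69 ± 0.11 (SD, n = 5 each), and neither tissue gave a call against BPN. The BPL difference was lower in heart than in kidney by 0.42 ± 0.12 (adjusted p = 0.0312, limma interaction) and than in liver by 0.59 ± 0.12 (adjusted p = 0.000644, limma interaction). The kidney means lay below the array medians (4.90 to 4.98) and the liver means near them (3.76 to 3.85), so a fall had less room to show there. Aorta was hybridised as cDNA and the other tissues as cRNA, so its differences were not tested against theirs. Cox4i1, the partner isoform, was not called against BPN in any of the 4 tissues, with differences between -0.07 and 0.15.

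Cox6a2, the heart and skeletal muscle form of subunit 6a, was lower in BPL kidney. The arrays read 6.22, 6.17, 6.08 and 6.14 in BPL, 7.51, 7.33, 7.15, 7.24 and 7.25 in BPN, and 7.44, 7.49, 7.91, 7.66 and 7.76 in BPH. BPL lay below every other array, and BPH overlapped BPN. BPL was 2.20-fold lower than BPN (-1.14 ± 0.09, adjusted p = 4.22e-07, limma), with no call lost when any kidney array was left out. The BPH difference of 0.35 ± 0.09 passed (adjusted p = 0.0209, limma) but was lost without BPH 3, BPH 5, BPN 3 or BPN 5 (adjusted p up to 0.0587, limma). In heart, where Cox6a2 had means of 13.83, 13.74 and 13.82 in BPH, BPN and BPL, the differences were 0.08 in both strains and not called. In aorta they were 0.53 ± 0.37 and 0.35 ± 0.37, and in liver -0.02 and 0.01. The BPL kidney difference was lower than that in heart by 1.22 ± 0.10 (adjusted p = 1.84e-12, limma interaction) and than that in liver by 1.15 ± 0.10 (adjusted p = 1.10e-11, limma interaction). In a fit of all 12 groups, aorta included, these had adjusted p of 0.0893 and 0.12 (limma). Of 11 striated muscle markers in kidney 0 rose and 1 fell in BPL, and 1 of the 11 lay above the array median. Cox6a1, the partner form, had kidney differences of -0.12 and -0.11, not called.

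**Figure D4:**
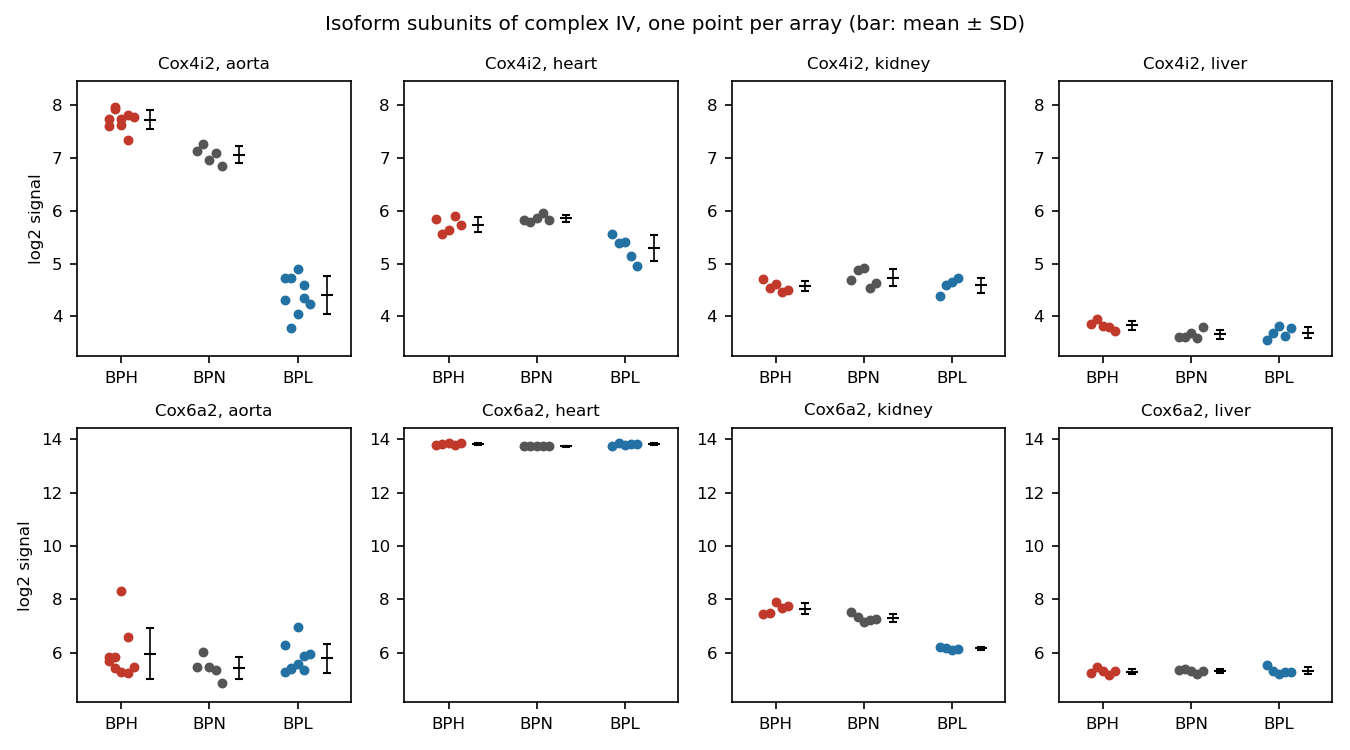
Log2 signal of Cox4i2 (top) and Cox6a2 (bottom) on each array by strain, 1 panel per tissue, with bars for mean ± SD. In aorta the BPL arrays of Cox4i2 lie between 3.78 and 4.90, below the 6.86 to 7.96 of the other strains. In kidney the BPL arrays of Cox6a2 lie between 6.08 and 6.22, below all others.

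The 2 probe sets of Atp5g1, a gene for the ring subunit c of ATP synthase, disagreed. Probe set A (100103951_TGI_at) is listed for the RefSeq mRNA and probe set B (100095717_TGI_at) for a cDNA clone. On A, the heart arrays read 5.24, 5.47, 5.56, 5.17 and 5.38 in BPH, 3.69, 4.18, 4.17, 4.16 and 4.05 in BPN, and 3.34, 2.75, 2.99, 2.95 and 3.24 in BPL. The strains did not overlap and followed the order BPH, BPN, BPL. On B the same arrays read 13.38, 13.40, 13.34, 13.44 and 13.38, then 13.32, 13.28, 13.33, 13.36 and 13.39, then 13.57, 13.53, 13.44, 13.41 and 13.45. A rose by 1.32 ± 0.12 in BPH (adjusted p = 4.25e-07, limma) and fell in BPL (adjusted p = 1.35e-05, limma), where its mean of 3.06 lay below the lower quartile of the heart arrays (3.20 to 3.32). B gave 0.05 ± 0.05 and 0.14 ± 0.05, not called.

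In aorta, where A lay above the lower quartile in all 3 strains, it was 2.69-fold lower in BPL than in BPN (-1.43 ± 0.20, adjusted p = 9.51e-06, limma), without overlap, and 0.36 ± 0.20 in BPH, not called. B had -0.21 ± 0.08 in BPL aorta (adjusted p = 0.120, limma), which passed when BPL 29 was left out. BPH exceeded BPL on A by 1.78 ± 0.17 in aorta. In kidney, A read 4.26, 4.25, 4.24, 4.35 and 4.54 in BPH against 3.46, 3.39, 3.49, 3.48 and 3.48 in BPN. It was called higher in BPH (adjusted p = 9.23e-07, limma), with the BPN and BPL means below the lower quartile (3.49 to 3.64), and B had 0.16 ± 0.06, not called. In kidney BPL, B rose by 0.25 ± 0.06, a call lost without BPL 4, BPL 5 or BPN 3, and A was not called. In liver the means of A in all 3 strains lay below the lower quartile (2.67 to 2.76), and nothing is read from its values there, although limma called BPH higher than both other strains. A was also called higher in BPH than in BPL in heart and kidney, with BPL below the lower quartile in both. The sequences of the probes were not used here, and which transcript each probe set measures was not tested.

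**Figure D5:**
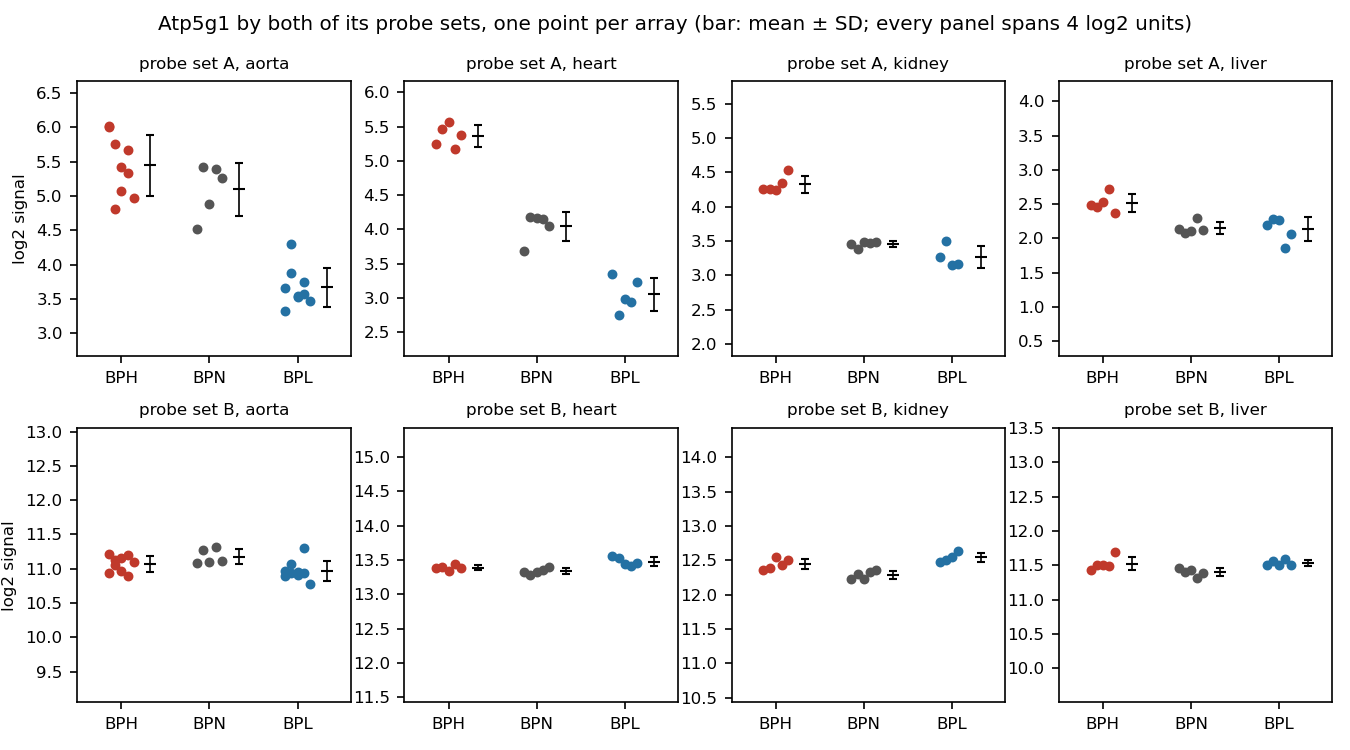
Log2 signal of Atp5g1 probe sets A (top) and B (bottom) on each array by strain and tissue, with bars for mean ± SD and every panel spanning 4 log2 units. On A the heart arrays of the 3 strains do not overlap, with means of 5.37, 4.05 and 3.06 in BPH, BPN and BPL. On B the heart means are 13.39, 13.34 and 13.48.

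Ndufs4, an accessory subunit of complex I whose loss causes a severe encephalopathy, had 3 probe sets that differed by size in aorta, where all were positive, and by sign in kidney. On 100099770_TGI_at the aorta arrays ran from 3.95 through 4.11 to 4.33 in BPH, read 2.95, 3.28, 3.03, 3.47 and 3.03 in BPN, and ran from 3.66 through 4.48 to 4.87 in BPL, with BPN below both. It rose in aorta by 0.99 ± 0.17 in BPH and 1.17 ± 0.17 in BPL, with the BPN mean just above the lower quartile (2.90 to 3.03). In heart the BPN arrays read 2.87, 2.70, 2.74, 2.66 and 2.94, all below the lower quartile, and limma called both other strains higher there, with no size given. On 100106897_TGI_at the aorta values were 0.33 ± 0.12 in BPH, not called, and 0.42 ± 0.12 in BPL, a call lost without BPN 13 or 14, and the heart values were -0.12 and -0.07, not called. In kidney the latter fell by 0.24 ± 0.05 on the log2 scale in BPH and by 0.21 ± 0.06 in BPL (lost without any of 11 arrays). The former was not called there against BPN, whose arrays, between 3.08 and 3.40, all lay below the lower quartile. In liver its means in all 3 strains lay at or below that quartile, so it was compared by size only in aorta. The third, 100084855_TGI_at, rose in aorta by 0.82 ± 0.15 and 0.81 ± 0.15 and was not called in heart, kidney or liver. Its kidney values were 0.16 in BPH and 0.03 in BPL, opposite in sign to the falls on 100106897_TGI_at.

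Ndufaf4, an assembly factor of complex I, fell in BPL on 2 of its 3 probe sets. On 100082477_TGI_at the kidney arrays read 8.53, 8.60, 8.42 and 8.46 in BPL and 9.19, 9.08, 8.94, 9.19 and 9.08 in BPN, and the liver arrays 7.37, 7.24, 7.45, 7.12 and 7.16 in BPL and 8.02, 8.03, 7.68, 7.97 and 7.99 in BPN. Neither pair overlapped, and the differences were -0.59 ± 0.08 in kidney (adjusted p = 6.68e-05, limma), -0.67 ± 0.08 in liver (adjusted p = 2.37e-05, limma) and -0.23 ± 0.06 in heart (adjusted p = 0.0111, limma). On 100110244_TGI_at BPL fell in liver (-0.52 ± 0.13) and heart (-0.21 ± 0.06, a call lost without any of 6 arrays), had -0.23 in kidney, not called, and rose in aorta by 0.55 ± 0.15, a call lost without BPN 13. The third, 100121315_TGI_at, was not called against BPN in any tissue, with 0.18 in BPL liver. In aorta the first had 0.37 in BPL, not called. On the first probe set the BPL difference was smaller in heart than in liver by 0.44 ± 0.10 (adjusted p = 0.00219, limma interaction).

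Sdha and Uqcrq disagreed less widely. In BPH heart Sdha probe set 100114260_TGI_at rose by 0.27 ± 0.07 (lost without BPH 4, BPH 5, BPN 2 or BPN 4) and 100084028_TGI_at had 0.00 ± 0.05, while in BPH aorta the latter rose by 0.71 ± 0.20, lost without BPN 12, 13 or 14, and the former had 0.20 ± 0.15. Uqcrq, a small subunit of complex III, rose in BPL aorta by 0.71 ± 0.18 on 100083488_TGI_at, with 0.04 ± 0.16 on 100107450_TGI_at. Ndufb11, the remaining subunit with several probe sets, had 0 calls against BPN on either, and 1 of them lay below the lower quartile in all 4 tissues.

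In heart, the members were called at about the share of all probe sets in BPH and at a higher share in BPL. These shares were not matched for signal level. With only probe sets above the array median, 6 of 76 members were called in BPH against BPN, among 2930 called in all. The count over all rose from 2695 although fewer probe sets were tested, while the members called stayed at 6. The filtered share of all was thus above 7.02%, and the likeness of the shares in BPH is not shown at matched signal. No filtered count is given for BPL heart. In BPH against BPN 5 rose and 1 fell (7.32%, against 7.02% of all, 3.51% higher and 3.51% lower), with a median of 0.00, and in BPL against BPN 11 rose and 5 fell (19.5%, against 9.34% of all, 4.14% higher and 5.2% lower), with a median of 0.05 and 56 of 82 positive. The BPL count was 9 without BPN 1, 10 without BPN 2 or BPN 3, and 10 with a replicate block. Besides complex II and the probe sets above, Ndufs8 read 11.10, 11.25, 11.14, 11.21 and 11.12 in BPL, above all BPN arrays (10.80, 10.82, 10.84, 10.97 and 10.89), and rose by 0.30 ± 0.06 (adjusted p = 0.00295, limma). Its BPH difference was -0.01. Atp5g2, another gene for subunit c, rose by 0.21 ± 0.05 in BPL, Cox6b2 by 0.20 ± 0.05 and Atp5j by 0.19 ± 0.05. The BPN heart values of Cox6b2, 4.56 to 4.74, lay near the array medians (4.62 to 4.72). Ndufv3 rose in both strains, by 0.30 ± 0.09 and 0.32 ± 0.09, with the BPH call lost without any of 9 arrays and the BPL call without any of 5. The assembly factor Ndufaf1 read 9.33, 9.28, 9.38, 9.15 and 9.41 in BPH and 9.23, 9.43, 9.28, 9.40 and 9.29 in BPL, below the 9.62, 9.68, 9.63, 9.75 and 9.68 of BPN. It fell by 0.36 ± 0.06 and 0.35 ± 0.06, and these calls held with each heart array left out. In aorta Ndufaf1 rose in both strains (0.32 ± 0.09 and 0.38 ± 0.09), and the assembly factor Ndufaf6 rose in BPH (0.44 ± 0.13, a call lost without any of 7 arrays).

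Brown adipocyte markers in heart had a mean level of 5.96 to 6.61 in BPH, 6.11 to 6.68 in BPN and 6.04 to 7.36 in BPL, with 0 called higher in either strain and Dio2 lower in BPL. Of 7 macrophage markers 4 fell in BPH heart and 6 in BPL heart, and 11 striated muscle markers had medians of -0.02 in both strains. Their part in the differences was not tested.

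In kidney, the shares of members called were close to those of all probe sets, not matched for signal level, and 0 of the 6 complex II probe sets were called. In BPH against BPN 2 rose and 3 fell (6.10%, against 7.05% of all, 3.66% higher and 3.39% lower), and in BPL against BPN 2 rose and 5 fell (8.54%, against 6.24% of all, 3.22% higher and 3.02% lower). Ndufa3, a small membrane-arm subunit of complex I, read 10.30, 10.27, 10.41, 10.31 and 10.18 in BPH and 10.68, 10.83, 10.64, 10.70 and 10.64 in BPN. BPH fell by 0.40 ± 0.06 on the log2 scale (adjusted p = 0.000253, limma) without overlap, and BPL had -0.05. Cox7a2l, which helps complexes III and IV associate, fell by 0.42 ± 0.07 in BPL (adjusted p = 0.00118, limma), with arrays at 9.92, 9.89, 10.02 and 9.76 against 10.30, 10.42, 10.27, 10.29 and 10.30 in BPN. Ndufaf7, a methyltransferase of complex I assembly, read 8.83, 8.81, 8.81 and 8.67 in BPL, above the 8.35, 8.32, 8.40, 8.41 and 8.29 of BPN. It rose by 0.43 ± 0.06 (adjusted p = 0.000226, limma), and by 0.52 ± 0.10 in BPL aorta. Atp5mpl, a small proteolipid of complex V, fell in BPH by 0.19 ± 0.05, a call lost without any of 5 arrays. Ndufa6 fell in BPL by 0.21 ± 0.05. Of 7 macrophage markers 4 fell in BPH kidney (median -0.51) and 0 were called in BPL (median -0.03). Their mean level was 5.67 to 6.01 in BPH, below the 6.25 to 6.64 of BPN and the 6.11 to 6.67 of BPL. Of 6 proximal tubule markers 2 rose in BPL, with a mean level of 11.97 to 12.04 against 11.79 to 11.88 in BPN, and 0 were called in BPH. Of 8 distal tubule and collecting duct markers 2 fell in BPL, and 2 rose and 1 fell in BPH. Of 6 lymphocyte markers 2 fell in BPH, and of 4 podocyte markers 1 rose in BPH, and 1 rose and 2 fell in BPL. Their part in the members' differences was not tested.

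In liver 7 members rose and 0 fell in BPH against BPN (8.54%, against 7.14% of all, 3.29% higher and 3.85% lower), with a median of 0.07 and 64 of 82 positive. In BPL against BPN 3 rose and 4 fell (8.54%, against 7.47% of all, 3.77% higher and 3.7% lower). Ndufab1, the mitochondrial acyl carrier protein, read 11.24, 11.18, 11.12, 11.23 and 11.09 in BPH and 10.86, 10.71, 10.83, 10.87 and 10.86 in BPN and rose by 0.35 ± 0.06 (adjusted p = 0.000877, limma). Ndufc1 rose by 0.30 ± 0.05. Cox6b2, the form of subunit 6b best known from testis, rose in BPH by 0.58 ± 0.09 (adjusted p = 0.000186, limma), from 3.55, 3.31, 3.37, 3.39 and 3.55 in BPN to 4.03, 4.17, 4.19, 3.75 and 3.94 in BPH. Those BPN values all lay below the liver array medians (3.76 to 3.85), so the signal was low. Cox7a1 rose by 0.50 ± 0.12. Ndufa6, an accessory subunit of the LYR family, read 10.75, 10.51, 10.71, 10.70 and 10.76 in BPL against 11.13, 11.04, 11.07, 11.06 and 11.07 in BPN and 11.03, 11.10, 11.04, 11.13 and 11.10 in BPH. BPL lay below both, with a difference from BPN of -0.39 ± 0.06 (adjusted p = 0.000273, limma). Ndufaf1 rose in BPL liver by 0.26 ± 0.07, a call lost without BPN 2. Of 7 macrophage markers 6 fell in BPH liver and 5 in BPL liver, and of 5 hepatocyte markers 0 fell in BPH and 1 in BPL; their part was not tested.

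Between BPH and BPL directly, 2 members were higher and 4 lower in heart (7.32%, against 8.57% of all, 4.59% higher and 3.97% lower), 3 and 2 in kidney (6.10%, against 6.33%, 3.14% higher and 3.19% lower), and 6 and 0 in liver (7.32%, against 5.77%, 2.68% higher and 3.09% lower). Besides Atp5g1 probe set A, the calls in more than 1 tissue in 1 direction were Cox4i2, Ndufaf4 on 100082477_TGI_at and Ndufaf7, each in 2 tissues. Ndufs8 was lower in BPH than in BPL in heart by 0.31 ± 0.06 (adjusted p = 0.00219, limma).

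Whether a strain difference itself differed between tissues was tested in a joint fit of heart, kidney and liver. For BPH minus BPN, 3 of 82 members differed between heart and kidney (4.36% of all probe sets did), 7 between heart and liver (5.96%) and 11 between kidney and liver (4.82%; 7 without kidney BPH 2, kidney BPN 2 or liver BPN 4). For BPL minus BPN, 10 differed between heart and kidney (5.81%), 9 between heart and liver (7.42%) and 3 between kidney and liver (5.48%; 5 without liver BPL 3). Ndufa3 was lower in BPH kidney than the liver difference by 0.32 ± 0.08 (adjusted p = 0.00713, limma interaction) and than the heart difference by 0.30 ± 0.08 (adjusted p = 0.0141, limma interaction). Ndufa6 in BPL was higher in heart than in liver by 0.45 ± 0.07 (adjusted p = 2.30e-06, limma interaction), and Ndufaf7 in BPL was lower in heart than in kidney by 0.44 ± 0.09 (adjusted p = 0.000717, limma interaction).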

How the data were processed

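Transcripts were measured on 67 single-colour arrays of 38385 probe sets. The authors deposited 1 linear intensity per probe set and array, with RMA as the normalisation, per the submitters' processing notes; further settings are not given in the sources used here. RMA sets arrays to a common distribution, so a change in total transcript amount is not seen. Aorta RNA was amplified to cDNA and the other RNA to cRNA, per the labels' protocols. Gene symbols came from the platform annotation, with 24478 probe sets of 1 symbol, 65 of several and 13842 not named. Log2 was taken with a pseudocount of 0 and no filter on low values. Each tissue was fitted with limma 3.58.1 (R 4.3.3; lmFit and eBayes), with Benjamini-Hochberg adjustment over all probe sets and calls below 0.05. Tissue differences were tested in a joint fit of heart, kidney and liver. The number of arrays limits the precision. No array pair held identical values (0 pairs). The fit was tested on simulated data.

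The members and lists were chosen with earlier results of these data known. The genes named were, per comparison with BPN, the 6 called members of largest difference in each tissue, the called member of largest BPH difference per complex, members called in all 4 tissues, the paired isoforms with Ndufa4 and Ndufa4l2, and probe sets of a gene that disagreed by a sign or by 0.5 or more. Other members, and Ucp1 and the other markers given, were added with their values known. Alternatives were centring, quantile normalisation, a pseudocount of 16, only probe sets above the array median, array weights, 1 probe set per gene, a fit of all 12 groups, a replicate block and leaving out each array. Correlations of the deviations of same-numbered arrays lay between -0.29 and 0.28 across strains and -0.22 and 0.21 across tissues of a strain. They cannot tell whether same-numbered arrays of different tissues came from the same mouse. The tests of tissue differences treated all arrays as independent, except with the replicate block. RefSeq promoters of build GRCm38.p6 were searched over 250 bases; 32851 entries were searched.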

Additional observations from a re-analysis of the deposited data

Results flagged for a closer look

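Single arrays stood apart from the others of their strain in 10 of 102 groups examined (the probe sets with the largest differences, in the tissues where they were called), where chance gives about 1 in 20 by Dixon's test. As log2 values, these were Sdha 100084028_TGI_at in aorta BPH 10 at 9.94, against 8.89 to 9.30 on the other arrays; Atp5g1 probe set A in heart BPN 1 at 3.69 (others 4.05 to 4.18) and in liver BPN 4 at 2.30 (others 2.07 to 2.13); Ndufa3 in kidney BPL 1 at 10.6 (others 10.66 to 10.67). Cox7a2l in kidney BPN 2 read 10.42 (others 10.27 to 10.30) and Ndufaf7 in kidney BPL 5 read 8.67 (others 8.81 to 8.83). In liver, Ndufab1 in BPN 2 read 10.71 (others 10.83 to 10.87), Ndufc1 in BPH 1 read 10.2 (others 10.11 to 10.13), Ndufa6 in BPL 2 read 10.51 (others 10.70 to 10.76) and Ndufaf4 100082477_TGI_at in BPN 3 read 7.69 (others 7.97 to 8.03). The strain calls of these probe sets in those tissues held without the array concerned.

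Strain differences that themselves differed between tissues by at least 0.5 log2 units, a limit chosen after the values were seen, came to 14. For BPH minus BPN in heart minus the same in liver they were Cox6b2 at -0.58, Cox7a1 at -0.58, Atp5g1 probe set A at 0.95 and Ndufaf1 at -0.50, with adjusted p from 3.17e-06 to 0.00274 (limma interaction). For BPH minus BPN in kidney minus the same in liver they were Cox6b2 at -0.52 and Atp5g1 probe set A at 0.50. For BPL minus BPN in heart minus the same in kidney they were Cox6a2 at 1.22, Atp5g1 probe set A at -0.80 and Ndufaf1 at -0.52. For BPL minus BPN in heart minus the same in liver they were Ndufs4 100099770_TGI_at at 0.73, Cox4i2 at -0.59, Atp5g1 probe set A at -0.98 and Ndufaf1 at -0.60. For BPL minus BPN in kidney minus the same in liver it was Cox6a2 at -1.15. Those of Atp5g1 probe set A and Ndufs4 100099770_TGI_at rest on low signals, with the means of all 3 strains in liver and of BPN (Ndufs4) or BPL (Atp5g1) in heart under the lower quartile on 1 or more arrays, and BPN and BPL in kidney for Atp5g1, so their sizes are not to be read as measured differences. For Cox4i2 the liver means lay near the array medians, with less room for a fall to show. For Cox6b2 the BPN liver arrays lay below the array medians. All 14 remained below 0.05 with arrays centred and with a replicate block. In a fit of all 12 groups Cox7a1, Atp5g1 in kidney against liver, Ndufs4 and both of Cox6a2 did not pass.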

How the results depend on the processing

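Of 3560 refits of 147 named differences, 3412 kept their direction and side of the threshold, 129 lost the call, 19 gained it and 0 reversed it. Of 111 counts of called members under alternatives other than leaving out an array, 82 stayed within 1.5 times. The fit of all 12 groups, with 1 shared spread, gave 41, 58 and 19 calls in aorta (BPH minus BPN, BPL minus BPN, BPH minus BPL), 6 in heart BPL minus BPN, 3 in heart BPH minus BPL, 3 in kidney BPH minus BPN and 3 in kidney BPH minus BPL, 4 in liver BPH minus BPN and 3 in liver BPH minus BPL. For the tissue differences it gave 1, 3 and 1 in BPH (heart and kidney, heart and liver, kidney and liver) and 3, 4 and 1 in BPL. Array weights gave 25 in aorta BPH minus BPN. A pseudocount of 16 gave 14 and 11 in heart (BPH minus BPN, BPH minus BPL) and 11, 12 and 10 in kidney (BPH minus BPN, BPL minus BPN, BPH minus BPL). Only probe sets above the array median gave 13 and 9 in kidney (BPL minus BPN, BPH minus BPL), 1 probe set per gene 3 in heart BPH minus BPN, and centring 3 in heart BPH minus BPL and 6 for BPL between heart and kidney. The replicate block, whose numbers are not tied to animals, gave 10 in heart BPL minus BPN, 3 in heart BPH minus BPL and 3 in kidney BPH minus BPN. The cause of these changes was not tested. Leaving out 1 array gave, for BPH minus BPN, BPL minus BPN and BPH minus BPL, 6 to 20, 16 to 38 and 4 to 7 in aorta, 4 to 6, 9 to 17 and 3 to 6 in heart, 3 to 6, 4 to 8 and 4 to 6 in kidney, and 6 to 7, 5 to 7 and 6 to 7 in liver. The tissue differences gave 3 to 4, 6 to 8 and 7 to 12 in BPH, and 8 to 13, 8 to 10 and 2 to 5 in BPL. Heart BPH minus BPL fell to 3 without BPH 3, BPH 5, BPL 2, BPL 4 or BPL 5, kidney BPH minus BPN to 3 without BPH 5, and kidney BPL minus BPN to 4 without BPL 5.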
